A study of Mus musculus with 8 samples.

Results

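The mitochondrial carrier family Slc25 was followed in hearts of 2-week-old mice without Lmna, which encodes the nuclear lamins A and C. Members were taken by name: every protein-coding gene whose symbol in the GENCODE M21 annotation begins with Slc25a and a number, 47 genes of the 141239 features in the count tables. All 8 libraries came from hearts of Lmna-/- mice of mixed strain. Of these, 3 were untreated (labelled Lmna-/-, replicates 6, 7 and 8) and 5 had been given AAV9 Lmna WT, an adeno-associated virus of serotype 9 that carries wild-type LMNA (replicates 1 to 5, called AAV9-LMNA below). The promoter of the vector, the species of its LMNA, its dose and the day it was given are not stated in the sources used here. No heart with intact Lmna and no heart given an empty vector was analysed here, so a change is given only relative to untreated knockout hearts, and LMNA and AAV9 itself cannot be told apart.

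Carriers of this family sit in the inner mitochondrial membrane, which is closed to charged metabolites, and each exchanges or imports a small set of them. The protein is built of repeated units of a pair of membrane helices and opens in turn to the matrix and to the space between the membranes. The heart depends on the family for its energy supply. ADP and phosphate enter and ATP leaves through carriers, fatty acids enter as acylcarnitines, and the malate-aspartate shuttle brings in the reducing power of glycolysis. Carriers are made in the cytosol, recognised at the outer membrane by TOM70, and inserted by the TIM22 complex.

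Levels are given as CPM, a gene's raw count relative to the library total, with totals scaled by TMM (a trimmed mean of the ratios between libraries), with the values of a group in the order of its replicate numbers. Between 21439956 and 26492443 reads per library lay on features. A gene was called where the edgeR quasi-likelihood test, adjusted by Benjamini-Hochberg over all 26717 features that passed the filter on low counts, gave an adjusted p under 0.05. A positive log2 change means a higher level in AAV9-LMNA hearts. The labelled tissue held its markers: 8 cardiomyocyte markers summed to 41310 to 70430 CPM in untreated and 50300 to 66520 CPM in AAV9-LMNA libraries. Lmna, as a check of the labels, held 46.4, 68.7 and 32.3 CPM in untreated and 393, 227, 325, 312 and 747 CPM in AAV9-LMNA libraries, values that depend on how far the vector's LMNA matches the mouse gene. Reads outside features made up 16.75 to 24.69% in untreated and 12.05 to 12.85% in AAV9-LMNA libraries, and NONCODE genes 2.89 to 4.11% and 2.07 to 2.27% of counts, so on both measures the groups did not overlap. The part of these library differences in the changes below was not tested. Untreated replicate 6 had the highest value of both, and its 7 fibroblast markers summed to 1691 CPM against 4557 to 7447 CPM in the other libraries.

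Of the 47 carriers, 42 passed the filter, 11 were called higher in AAV9-LMNA hearts, 0 were called lower and 31 were not called. By edgeR's unadjusted p under 0.05, 3 were lower (Slc25a18, Slc25a42 and Slc25a47), and DESeq2 called 1 lower (6.31% of coding genes). The called genes included Slc25a1, Slc25a5, Slc25a11, Slc25a13, Slc25a20, Slc25a22, Slc25a32, Slc25a39, Slc25a44 and Slc25a45, and the rises were of 1.29-fold to 2.20-fold. Among all 13785 protein-coding genes tested, 18.4% were called higher and 6.07% lower, and among all features tested 10.6% and 15%. The median log2 fold change was 0.18 over the 42 carriers, 0.21 over the coding genes and -0.03 over all features, so the median of the carriers lay slightly below that of coding genes. The ranges of the groups did not overlap in 12 of the 42, against 29.7% of the coding genes. In bulk tissue, fewer cells of a type and less RNA per cell cannot be told apart.

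For many carriers the sign of a small change moved with the scaling. When only Ensembl features entered the scaling and the test, the log2 changes shifted by -0.19 in the median, 3 carriers were called higher (4.49% of coding genes) and 3 lower (8.73%). After each library was also corrected for transcript length and GC content, 5 were higher (2.93%) and 2 lower (4.43%). Against untreated replicate 7 alone, without replicates 6 and 8, 9 were higher (7.42%) and 0 lower (3.85%), where the lone untreated library is assumed to vary like the AAV9-LMNA ones. Slc25a20 and Slc25a45 were called higher in each of these fits and with any 1 library left out. The sign was positive for 36 of all 42 carriers in the main fit, for 21 with Ensembl features alone and for 19 after the correction. All 11 called carriers kept a positive sign in both of the latter. They were picked by their rise in these same libraries, so the kept sign is no separate support for them.

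**Figure D1:**
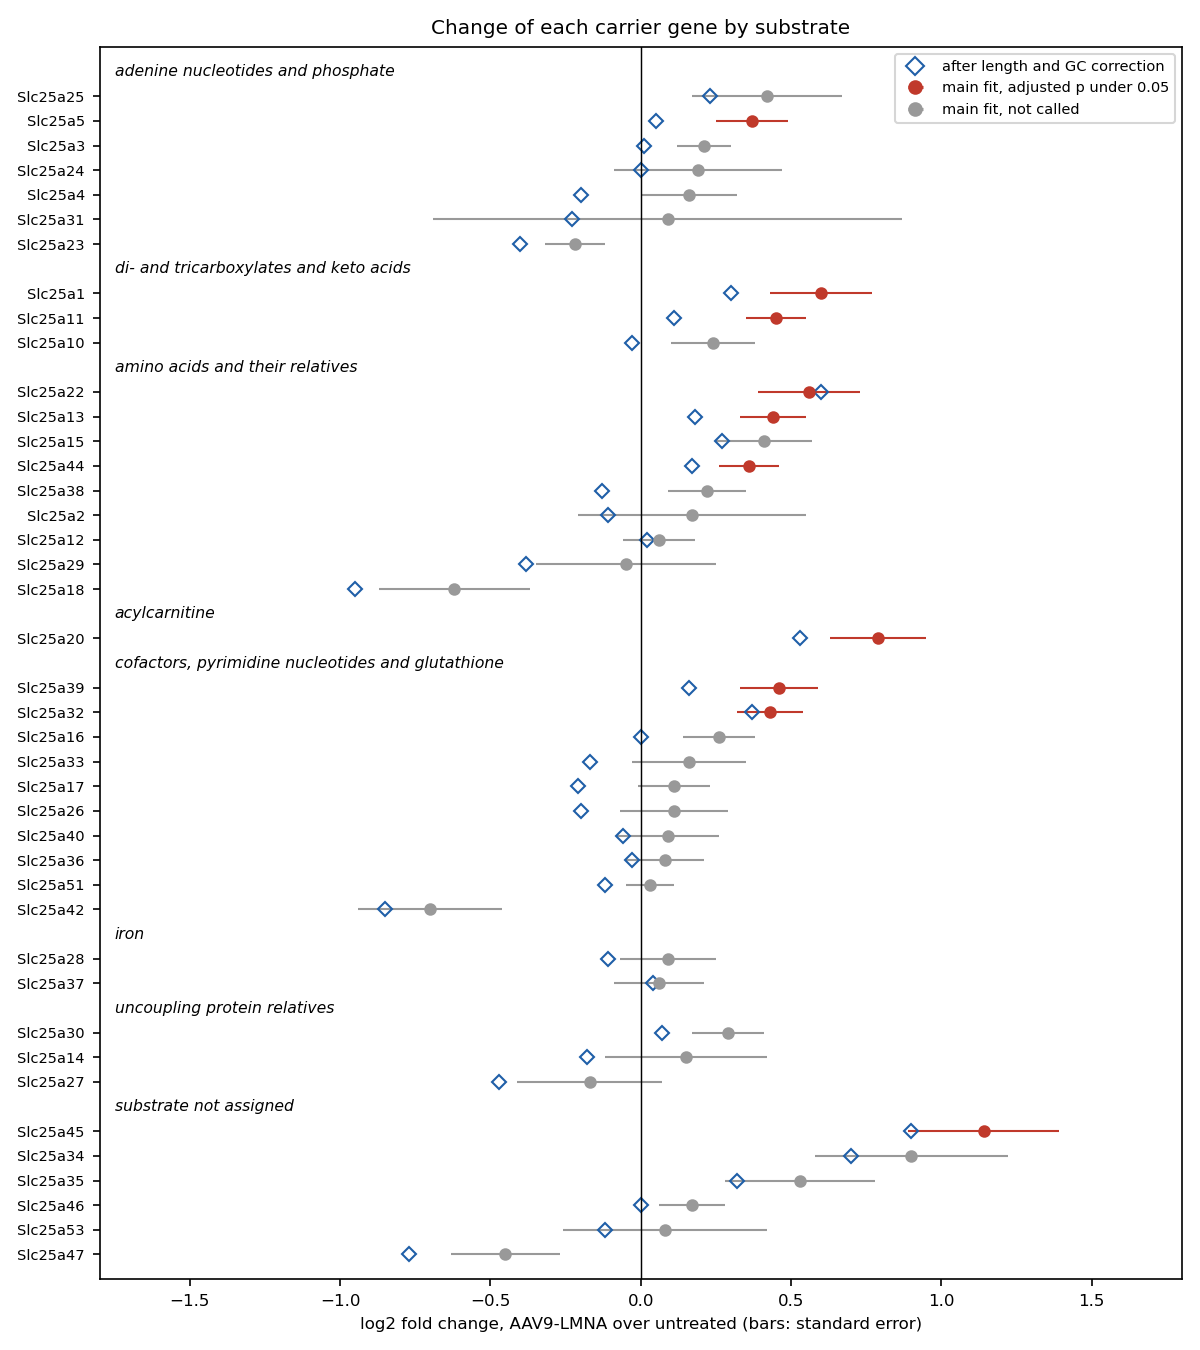
Log2 fold change (AAV9-LMNA over untreated, 3 against 5 libraries) of 41 of the 42 carriers tested, by substrate. Circles are the main fit with the standard error as bars, red where called; open diamonds are the same genes after the length and GC correction. The 10 called genes drawn, picked by their rise in the main fit, all lie to the right of 0 in both fits. Most diamonds lie to the left of their circles.

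The DNA just before Slc25a20 and Slc25a45 is shown because both were called higher in all of these fits. RefSeq start sites on GRCm38.p6 were given for 36 of the 47 carriers, with 46 promoters in all. Each stretch runs from 250 bases before the RefSeq start to the base before the GENCODE M21 start, on the plus strand, at chr9:108661886-108662087 for Slc25a20 and chr19:5877572-5877807 for Slc25a45. Capitals mark the GC box, GGGCGG on either strand.
Slc25a20: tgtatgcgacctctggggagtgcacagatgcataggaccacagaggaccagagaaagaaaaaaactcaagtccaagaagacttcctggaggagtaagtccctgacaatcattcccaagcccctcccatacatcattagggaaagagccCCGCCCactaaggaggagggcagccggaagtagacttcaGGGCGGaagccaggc
Slc25a45: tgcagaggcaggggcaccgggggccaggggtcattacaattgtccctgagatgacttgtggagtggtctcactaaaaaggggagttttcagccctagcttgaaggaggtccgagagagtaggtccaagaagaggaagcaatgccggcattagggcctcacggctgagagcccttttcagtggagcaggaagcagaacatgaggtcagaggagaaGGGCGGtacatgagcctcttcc

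The stretch of Slc25a20 held 2 GC boxes and that of Slc25a45 held 1. Over the 250 bases before a start, 69.6% of the 46 carrier promoters held a GC box. It was in 32.7% of all 32851 promoters given and in 55.6% of the 13744 promoters of coding genes that were tested. The 46 include promoters of the untested Slc25a21, Slc25a43, Slc25a48 and Slc25a54, and some carriers, such as Slc25a14, count more than once. The CCAAT box, CCAAT on either strand, was in 45.7% of carrier promoters, 33.8% of all and 34.6% of those of tested coding genes. The palindrome bound by NRF1, a regulator of nuclear genes for mitochondria, was in 4.35% of carrier promoters (those of Slc25a3 and Slc25a31), 3.74% of all and 7.25% of the tested coding genes' promoters. The estrogen-related receptor site TNAAGGTCA and the direct repeat bound by nuclear receptor pairs with 1 base between its arms, sought on both strands, were in none of the 46 carrier promoters, in 1.14% and 0.0335% of all and in 0.691% and 0.0364% of those of tested coding genes. The last of these shares the letters AGGTCA with the receptor site. Of these motifs, only the GC box was found in the promoters of Slc25a20 and Slc25a45, and a match describes letters only.

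Levels spanned a wide range, and adenine nucleotide exchange led it. Per kilobase of exon, Slc25a4 averaged 2962 CPM over the 8 libraries, followed by Slc25a11 with 171, Slc25a5 with 118, Slc25a34 with 94.7 and Slc25a3 with 87.5 CPM per kilobase. In untreated libraries Slc25a3 averaged more than Slc25a34 (79.6 against 61.4 CPM per kilobase), and in AAV9-LMNA libraries less (92.3 against 115). Slc25a13 (45.0), Slc25a20 (43.2) and Slc25a12 (39.0 CPM per kilobase) came next, and their libraries overlapped each other in level. Reads that fit more than 1 feature, 21.03 to 26.37% per library, were not counted, and the length is that of all annotated exons together. The part of counting and length in this order was not tested. Slc25a4 made up 68.5 to 78.0% of the CPM of all 47 carriers in each library. That sum was 10240, 7015 and 9144 CPM in untreated and 11670, 9470, 9724, 9663 and 10310 CPM in AAV9-LMNA libraries, so the groups overlapped. The 5 carriers left out by the filter were Slc25a21, Slc25a41, Slc25a43, Slc25a48 and Slc25a54, with 0 to 20 counts over all libraries. Slc25a48 and Slc25a54 had no count at all, which allows up to 0.0162 CPM (3 counts over the 8 libraries, counting error only).

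**Figure D2:**
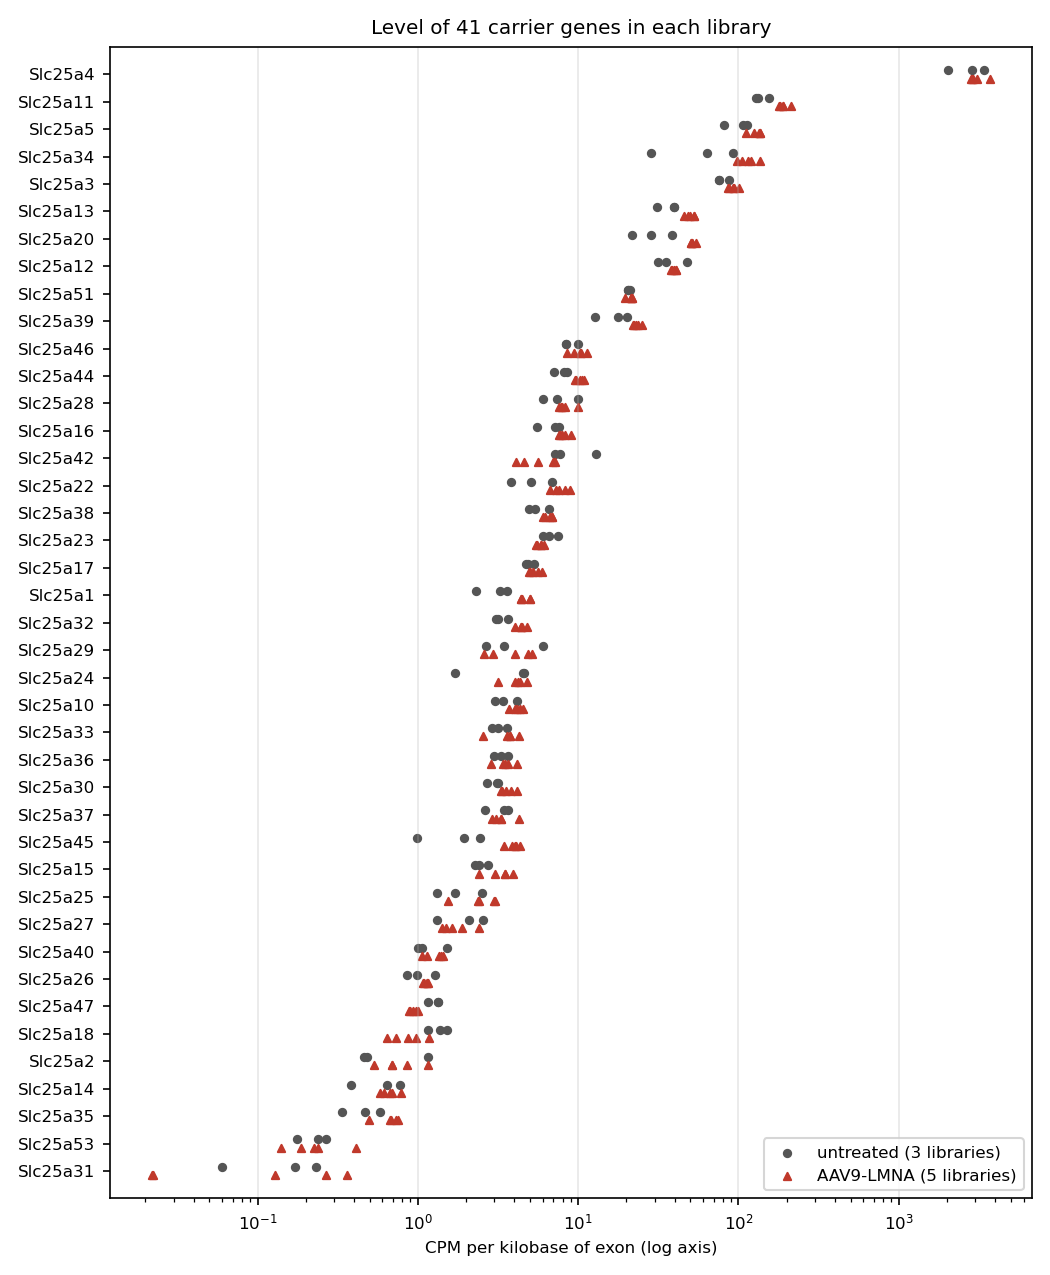
CPM per kilobase of exon (log axis) of 41 of the 42 tested carriers in each untreated (circles) and AAV9-LMNA (triangles) library, ordered by mean level; an AAV9-LMNA value of Slc25a31 stands for 1 read. Slc25a4 averages 2962 CPM per kilobase and Slc25a11, the next, 171.

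The adenine nucleotide and phosphate carriers made the largest share of the family's reads and held 1 called gene, Slc25a5, among 7 tested. Slc25a4 (ENSMUSG00000031633, GRCm38 chromosome 8, 46206797 to 46211284) encodes ANT1, the ADP/ATP exchanger of heart and muscle. It held 7995, 4802 and 6707 CPM in untreated and 8727, 6642, 6858, 6761 and 7268 CPM in AAV9-LMNA libraries. Only untreated replicate 7 lay below all AAV9-LMNA libraries, and the fold change of 0.16 ± 0.16 (log2, SE) was not called (edgeR adjusted p = 0.461). Against replicate 7 alone, a fit that holds no spread among untreated libraries, it was 0.61. It was -0.20 once length and GC content were corrected for. Slc25a3 (chromosome 10), the phosphate carrier that feeds ATP synthase, held 487, 417 and 422 CPM against 523, 479, 486, 511 and 561 CPM. Its groups overlapped through untreated replicate 6, and it was not called (log2 0.21, edgeR adjusted p = 0.113), whereas without replicate 6 it was (0.30, edgeR adjusted p = 0.0469).

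Slc25a5 (ENSMUSG00000016319, chromosome X, 36795651 to 36798807) encodes ANT2, the exchanger found in many dividing cells. Its CPM were 175, 185 and 133 in untreated and 184, 224, 204, 226 and 221 in AAV9-LMNA libraries, with replicate 7 of the former just above replicate 1 of the latter. Means were 164 ± 27.5 CPM (SD, n = 3) and 212 ± 17.5 CPM (SD, n = 5), a log2 change of 0.37 (SE 0.12, adjusted p = 0.046 by edgeR). This call was lost in 9 of the 16 alternatives, among them the fits without untreated replicate 8 (0.24) and without AAV9-LMNA replicates 2, 3, 4 or 5 (0.34 to 0.37), and the fold change was 0.05 after the length and GC correction. A processed pseudogene, Slc25a5-ps, resembles it, so its count is uncertain. Slc25a23, Slc25a24 and Slc25a25 encode calcium-regulated carriers that exchange ATP-Mg for phosphate. Slc25a23 held 34.8, 39.9 and 32.1 CPM in untreated and 32.3, 31.2, 29.0, 29.5 and 31.2 CPM in AAV9-LMNA libraries, where only 1 AAV9-LMNA library lay within the untreated range. It was not called in the main fit (log2 -0.22, edgeR adjusted p = 0.127) and was called lower with Ensembl features alone (-0.41, edgeR adjusted p = 0.0202) and with length and GC corrected (-0.40, edgeR adjusted p = 0.0437). Slc25a24 (0.19), Slc25a25 (0.42) and Slc25a31 (0.09), the ADP/ATP exchanger of the testis, were not called.

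Of 3 tested carriers of citric acid cycle acids, 2 rose. Slc25a11 (ENSMUSG00000014606, chromosome 11, 70644196 to 70647479), the oxoglutarate/malate carrier of the malate-aspartate shuttle, held 274, 282 and 330 CPM in untreated and 404, 378, 385, 399 and 450 CPM in AAV9-LMNA libraries. The groups did not overlap. Means were 296 ± 30.6 (SD, n = 3) and 403 ± 28.3 CPM (SD, n = 5), a rise of 0.45 ± 0.10 on the log2 scale (SE; edgeR adjusted p = 0.0108). The rise was called with any 1 library left out, and was 0.25 with Ensembl features alone and 0.11 after the length and GC correction, neither called. Rnf167 on the other strand shares 8.9% of its exon bases, and reads were counted without strand. Slc25a1 (ENSMUSG00000003528, chromosome 16, 17925223 to 17928219), the citrate carrier that exports citrate for lipid synthesis, held 4.96, 7.08 and 7.81 CPM against 9.53, 10.8, 9.58, 10.8 and 9.60 CPM. Every AAV9-LMNA library was above every untreated one, and the log2 change was 0.60 (SE 0.17, adjusted p = 0.0261 by edgeR), or 0.30 and not called after the correction. Its call was also lost with Ensembl features alone (0.42). It was lost as well without untreated replicate 6 or AAV9-LMNA replicate 2, 3 or 4, in fits whose log2 changes lay within 0.44 to 0.75. Against untreated replicate 7 alone the log2 change of Slc25a1 was 0.52. Slc25a10, the dicarboxylate carrier, was not called (0.24).

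Of 9 amino acid carriers, 3 rose and 6 were not called. The aspartate/glutamate carriers Slc25a12 (aralar) and Slc25a13 (citrin) perform the step of the malate-aspartate shuttle that sets its direction, and both bind calcium. Slc25a13 (ENSMUSG00000015112, chromosome 6, 6041218 to 6217173) held 150, 118 and 151 CPM in untreated and 202, 201, 173, 184 and 189 CPM in AAV9-LMNA libraries, without overlap. Its means were 139 ± 19.0 CPM (SD, n = 3) and 190 ± 12.2 CPM (SD, n = 5), a log2 change of 0.44 (SE 0.11, adjusted p = 0.0145 by edgeR). The fold change fell to 0.24 with Ensembl features alone and to 0.18 after the length and GC correction, and lost its call in both. Slc25a12 (ENSMUSG00000027010, chromosome 2) held 349, 232 and 258 CPM against 299, 290, 284, 280 and 299 CPM, with the AAV9-LMNA libraries inside the untreated range (log2 0.06, edgeR adjusted p = 0.755).

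Slc25a22 (ENSMUSG00000019082, chromosome 7, 141429744 to 141437892), a glutamate/proton carrier, held 23.0, 30.3 and 41.4 CPM in untreated and 43.4, 40.2, 45.5, 49.6 and 53.7 CPM in AAV9-LMNA libraries. Untreated replicate 8 lay within the AAV9-LMNA range. The log2 change was 0.56 (SE 0.17, adjusted p = 0.0364 by edgeR), and it was 0.60 after the length and GC correction (edgeR adjusted p = 0.047). The call was lost with Ensembl features alone (0.37, edgeR adjusted p = 0.151) and with the filter of 1 CPM in 3 libraries (0.51). Of the 8 fits that left out 1 library, with log2 changes of 0.39 to 0.81, only those without untreated replicate 8 or AAV9-LMNA replicate 2 kept the call. Its relative Slc25a18 was at 2.62, 2.22 and 2.90 CPM against 1.40, 1.67, 1.85, 2.23 and 1.22 CPM and was not called (log2 -0.62, edgeR adjusted p = 0.0838). Slc25a44 (ENSMUSG00000050144, chromosome 3, 88410498 to 88425139), a carrier of branched-chain amino acids, held 30.6, 29.2 and 25.2 CPM against 34.1, 39.2, 36.7, 37.7 and 34.5 CPM. Its groups did not overlap, and it rose by 0.36 ± 0.10 (log2, SE; edgeR adjusted p = 0.0271), which was 0.17 and not called after the correction. With Ensembl features alone it was 0.16 and not called. Without untreated replicate 8 or AAV9-LMNA replicate 2, 3 or 4 it was not called either. All 8 fits that left out 1 library gave 0.29 to 0.43, and the fit against untreated replicate 7 alone gave 0.33. The ornithine carrier genes Slc25a15 (0.41) and Slc25a2 (0.17), the basic amino acid carrier Slc25a29 (-0.05) and Slc25a38 (0.22), a glycine carrier used in heme synthesis, were not called.

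Slc25a20, the carnitine/acylcarnitine carrier, had the largest fold change of the 4 called carriers with means above 100 CPM. It brings long-chain acylcarnitines into the matrix for beta-oxidation. The gene (ENSMUSG00000032602, chromosome 9, 108662088 to 108684641) held 104, 139 and 188 CPM in the untreated hearts and 247, 244, 262, 247 and 244 CPM in AAV9-LMNA libraries. The untreated hearts spread widely, the AAV9-LMNA hearts lay close together, and the groups did not overlap. Its mean of 144 ± 41.9 CPM (SD, n = 3) became 249 ± 7.80 (SD, n = 5), a log2 change of 0.79 (SE 0.16, adjusted p = 0.00682 by edgeR), or 1.73-fold. With Ensembl features alone the fold change was 0.61, after the length and GC correction 0.53 (edgeR adjusted p = 0.0469), and against replicate 7 alone 0.85. Over the fits that left out 1 library it ran from 0.62 to 1.04, and all were called.

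Carriers of cofactors that rose included Slc25a32 and Slc25a39. Slc25a32 (ENSMUSG00000022299, chromosome 15, 39091231 to 39112716), linked to the import of folate and FAD, held 19.2, 22.1 and 18.6 CPM against 24.7, 29.2, 27.2, 26.6 and 26.9 CPM. The ranges were apart, and its log2 change of 0.43 (SE 0.11, adjusted p = 0.016 by edgeR) was 0.37 and still called after the correction (edgeR adjusted p = 0.0492). It was not called with Ensembl features alone (0.24) or against untreated replicate 7 alone (0.30). Slc25a39 (ENSMUSG00000018677, chromosome 11, 102402985 to 102407946), needed for glutathione import, held 35.1, 55.5 and 48.6 CPM against 60.8, 63.0, 65.5, 61.1 and 69.0 CPM. All untreated libraries lay below, replicate 6 furthest, and the rise of 0.46 ± 0.13 (log2, SE; edgeR adjusted p = 0.0301) was 0.31 without replicate 6 and 0.16 after the correction, neither called. The call was also lost with Ensembl features alone (0.28), and without untreated replicate 8 (0.50) or AAV9-LMNA replicate 2 (0.46), 3 (0.45) or 5 (0.43). Against untreated replicate 7 alone the log2 change of Slc25a39 was 0.21.

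Further carriers of cofactors were not called in the main fit. Slc25a42, a coenzyme A carrier (ENSMUSG00000002346, chromosome 8, 70184340 to 70212305), was at 46.0, 42.9 and 77.9 CPM in untreated and 43.2, 33.7, 24.5, 41.95 and 27.5 CPM in AAV9-LMNA libraries. Untreated replicate 8 lay far above all others, and the log2 fold change was -0.70 (edgeR adjusted p = 0.0548). It was -0.89 and called with Ensembl features alone (edgeR adjusted p = 0.04), -0.85 and not called after the correction (edgeR adjusted p = 0.0652), and -0.31 against replicate 7 alone (edgeR adjusted p = 0.626). Slc25a16, a relative linked to coenzyme A, held 34.3, 26.5 and 36.6 CPM against 43.0, 39.7, 37.1, 36.4 and 38.1 CPM, where only replicate 8 of the untreated libraries reached the AAV9-LMNA range (log2 0.26, edgeR adjusted p = 0.128). Against replicate 7 alone, a fit that holds no spread among untreated libraries, the log2 change was 0.57. Slc25a51, which imports NAD+, held 112, 113 and 117 CPM against 108, 118, 119, 117 and 120 CPM, a log2 change of 0.03 (SE 0.08). The pyrimidine nucleotide carrier Slc25a36 held 31.5, 35.2 and 28.6 CPM against 33.4, 35.1, 32.4, 39.6 and 27.6 CPM, with overlapping groups (0.08), and its relative Slc25a33 was at 0.16. Slc25a17 (0.11), a carrier of peroxisomes, Slc25a26 (0.11), which imports S-adenosylmethionine, and Slc25a40 (0.09) were not called either.

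Iron carriers overlapped between the groups. Slc25a28 (mitoferrin 2) held 37.5, 22.7 and 27.7 CPM in untreated and 37.1, 29.3, 31.1, 29.6 and 28.4 CPM in AAV9-LMNA libraries (log2 0.09, edgeR adjusted p = 0.697). Slc25a37 (mitoferrin 1), the form of red cell precursors, held 15.9, 22.1 and 20.6 CPM against 18.5, 20.01, 19.97, 17.5 and 25.6 CPM (log2 0.06, edgeR adjusted p = 0.798). Beside it, 8 erythroid markers summed to 448 to 965 CPM in untreated and 397 to 1180 CPM in AAV9-LMNA libraries, 0 of the 7 tested were called, and none was at 0 in all libraries. The relatives of uncoupling proteins, Slc25a14 (0.15), Slc25a27 (-0.17) and Slc25a30 (0.29), were not called, although the groups did not overlap for Slc25a30.

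Among the 6 tested carriers without an assigned substrate here, Slc25a45 was called. Slc25a45 (ENSMUSG00000024818, chromosome 19, 5877808 to 5885878) held 2.75, 6.78 and 5.36 CPM in untreated and 11.3, 10.7, 11.1, 9.58 and 11.96 CPM in AAV9-LMNA libraries, without overlap. Means of 4.96 ± 2.04 (SD, n = 3) and 10.9 ± 0.880 CPM (SD, n = 5) gave the largest fold change of the tested carriers, a log2 change of 1.14 (SE 0.25, adjusted p = 0.00984 by edgeR), or 2.20-fold. It was 0.90 after the length and GC correction (edgeR adjusted p = 0.0298), and over the fits that left out 1 library it ran from 0.86 to 1.45. Slc25a34 (ENSMUSG00000040740, chromosome 4, 141618824 to 141623821) held 75.5, 171 and 246 CPM against 362, 260, 320, 283 and 308 CPM. The groups did not overlap, yet the untreated libraries spread widely, and its log2 change of 0.90 (SE 0.32) was not called (edgeR adjusted p = 0.0674). It was called by limma-voom (adjusted p = 0.0399) and DESeq2 (adjusted p = 0.0118), and by edgeR without untreated replicate 6 (0.57, adjusted p = 0.0347) or 8 (1.32, adjusted p = 0.0214). It was not called with Ensembl features alone (0.73, edgeR adjusted p = 0.12) or after the length and GC correction (0.70, edgeR adjusted p = 0.153). Slc25a46, an outer membrane protein of the family that acts in membrane dynamics, held 45.4, 45.6 and 53.9 CPM against 46.5, 56.8, 51.2, 55.6 and 61.2 CPM and was not called (0.17). Slc25a35 (0.53) and Slc25a53 (0.08) were not called, and Rangrf shares 31.3% of the exon bases of Slc25a35. Slc25a47 was at 3.98, 4.01 and 3.45 CPM against 2.66, 2.99, 2.89, 2.79 and 2.63 CPM, without overlap, at -0.45 and not called (edgeR adjusted p = 0.0872). It was called lower with Ensembl features alone (-0.65) and after the correction (-0.77).

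**Figure D3:**
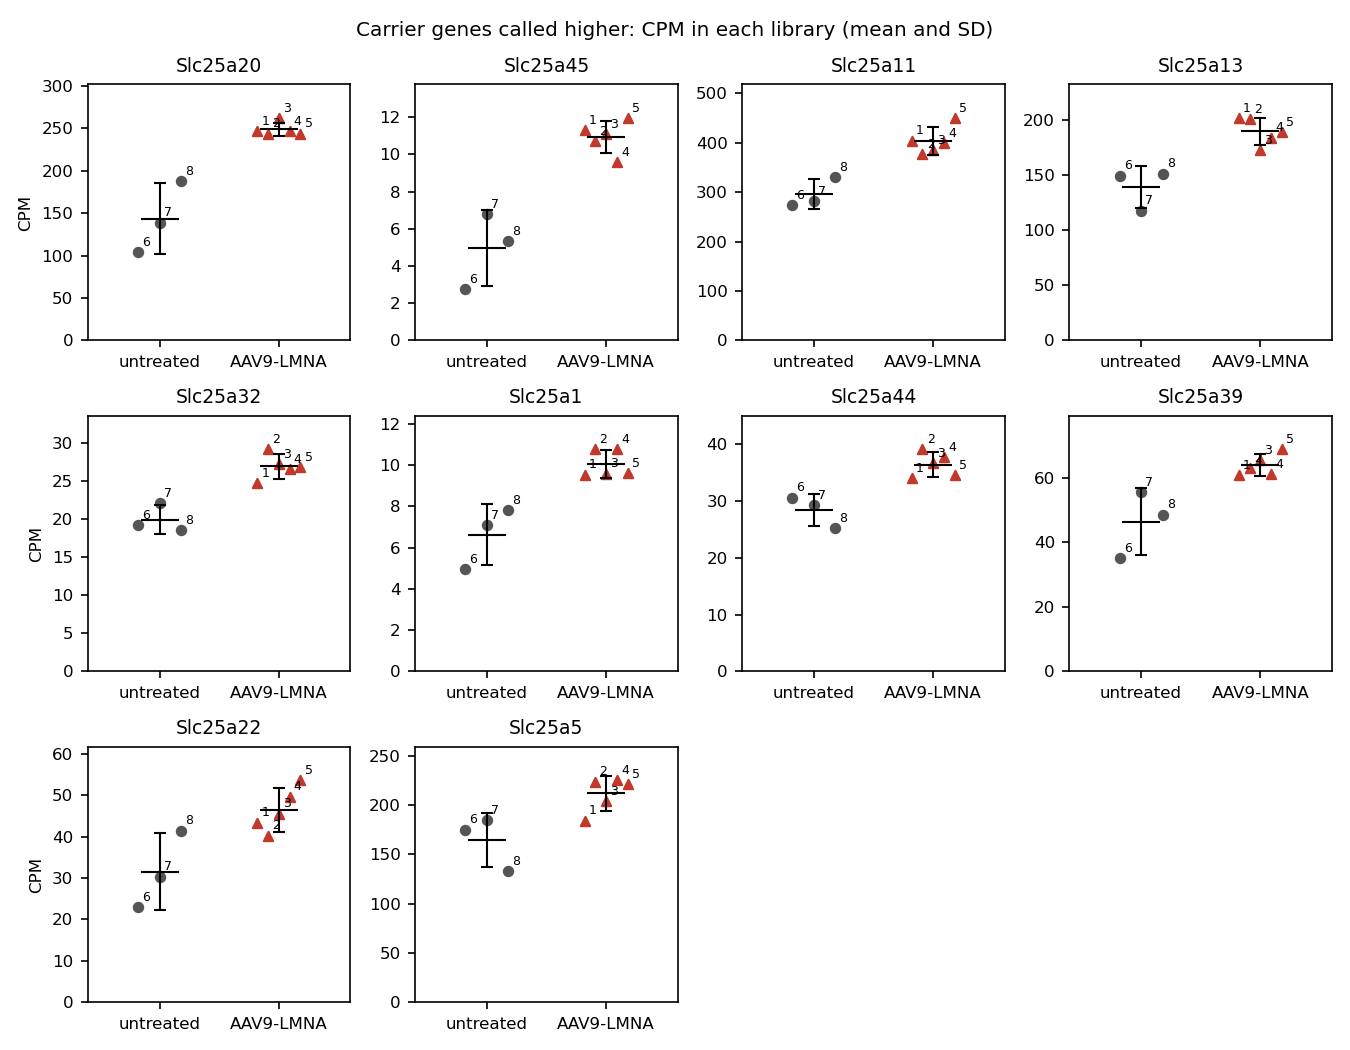
CPM of 10 carriers called higher in each library, numbered by replicate, with the mean and SD of 3 untreated (circles) and 5 AAV9-LMNA (triangles) libraries; axes start at 0. The groups overlap only for Slc25a22 and Slc25a5, and untreated replicate 6 is the lowest untreated library in 6 of the 10 drawn.

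The untreated hearts differed in the called genes. Replicate 6 was the lowest untreated library for 7 of the 11 called carriers, replicate 8 for 3 and replicate 7 for 1. Over all 42 tested carriers the lowest was replicate 6 in 17, replicate 7 in 14 and replicate 8 in 11. In replicate 6 the fibroblast and endothelial marker sums (1691 and 874 CPM) were also the lowest of the 8 libraries, while its cardiomyocyte sum (70430 CPM) was the highest. The part of cell composition in the changes of carriers was not tested. Of the markers, 0 of 7 for fibroblasts, 2 of 6 for endothelium (higher) and 3 of 8 for cardiomyocytes (2 higher, 1 lower) were called. In replicate 8 the atrial marker sum was 978 CPM against 59.1 to 177 CPM in the others. The main fit called 3 of 4 tested atrial markers lower in AAV9-LMNA libraries, whereas DESeq2 and limma-voom each called 0 of the 4. Among them, Bmp10 had 39, 27 and 1809 counts in untreated and 0, 1, 0, 2 and 0 counts in AAV9-LMNA libraries. Of 6 adipocyte markers 2 were tested and Cidea was called higher; the sums were 18.7 to 34.7 CPM in untreated and 40.5 to 48.3 CPM in AAV9-LMNA libraries, Adipoq was at 0 in all libraries, and their part was not tested. Sums of 6 macrophage markers (106 to 364 and 296 to 315 CPM) and 6 lymphocyte markers (0.410 to 3.67 and 2.80 to 5.88 CPM) overlapped between the groups, with 0 of 6 and 2 of 4 tested markers called. The macrophage sums overlapped through untreated replicate 7 (364 CPM against 106 and 166 in replicates 6 and 8). Without it 5 of the 6 macrophage markers were called higher, and DESeq2 and limma-voom each called 2 with all libraries. The part of these cells in the changes of carriers was not tested.

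Carriers with related substrates, or placed in the same group here, were next compared in pairs within each library, where scaling cancels. The ratio of Slc25a12 to Slc25a13 per kilobase was 1.21, 1.02 and 0.880 in untreated and 0.766, 0.748, 0.849, 0.786 and 0.818 in AAV9-LMNA libraries, without overlap. The mean log2 ratio was lower by 0.37 in AAV9-LMNA libraries (-0.37, two-sided p = 0.0357 by an exact permutation test, the smallest that 56 splits allow). The ratio of Slc25a18 to Slc25a22 was 0.358, 0.229 and 0.220 against 0.101, 0.130, 0.127, 0.141 and 0.0714, also without overlap, a log2 difference of -1.24 (exact permutation test, two-sided p = 0.0357). Of 11 such pairs these were the ones with the smallest p, and neither passed adjustment by Benjamini-Hochberg over the 11 (exact permutation test, adjusted p = 0.196 each). After the length and GC correction the differences were -0.16 and -1.55. The ratio of Slc25a4 to Slc25a5 was 18.2 to 35.2 in untreated and 20.8 to 33.1 in AAV9-LMNA libraries, with overlapping groups (log2 difference -0.19, exact permutation test, two-sided p = 0.536).

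**Figure D4:**
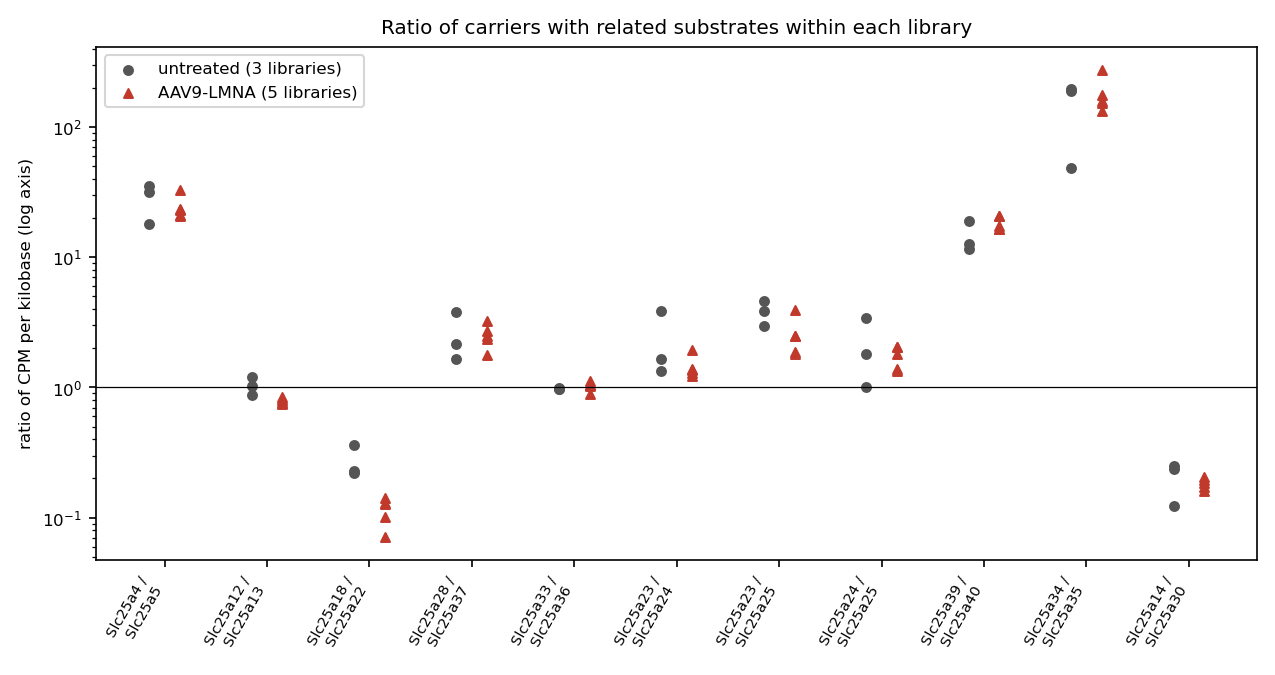
Ratio of CPM per kilobase (log axis) of 11 pairs of carriers placed in the same group here, in each untreated (circles) and AAV9-LMNA (triangles) library. The line marks a ratio of 1. No substrate is assigned here to Slc25a34 and Slc25a35. The groups do not overlap for Slc25a12 over Slc25a13 and for Slc25a18 over Slc25a22.

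Carriers were also set beside their length, GC content and level. Exons of the 11 called carriers had a median length of 3578 bases and those of the 31 uncalled ones 3935 bases, and transcript GC content had medians of 54.1% and 48.5%. Across the 42 tested carriers the log2 fold change had a Spearman rho of -0.15 with exon length, 0.17 with GC content and 0.31 with CPM per kilobase. These are descriptions over genes measured in the same 8 libraries. Exons of 14 of the 47 carriers overlap another annotated gene, and reads on the shared bases were dropped or cannot be assigned to a strand.

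Of 51 tested genes whose products work with the carriers, 21 were called higher and 0 lower (DESeq2 also called 0 lower, and edgeR's unadjusted p was under 0.05 for 1 lower gene, Mpc1), beside 18.4% and 6.07% of coding genes, with a median log2 fold change of 0.30. For the carnitine shuttle 3 of 5 rose, against 1 of 5 with Ensembl features alone (4.49% of coding genes) and 1 of 5 after the length and GC correction (2.93%). Cpt2, which re-forms acyl-CoA after Slc25a20 has brought acylcarnitine in, held 82.7, 165 and 175 CPM in untreated and 233, 274, 282, 268 and 285 CPM in AAV9-LMNA libraries, without overlap. Its log2 change was 0.93 (SE 0.21, adjusted p = 0.0131 by edgeR) and 0.67 after the length and GC correction (edgeR adjusted p = 0.0437). The carnitine importer of the cell membrane Slc22a5 rose by 0.56 and carnitine acetyltransferase Crat by 0.48, and Cpt1a (0.12) and Cpt1b (0.36) were not called. Cpt1b was listed at only 5.46 to 9.77 CPM, against a mean of 120 CPM for Cpt1a. Overlaps of linked genes with other genes were not examined, and whether counting lost reads of Cpt1b was not tested. Of 6 shuttle enzymes Mdh1, cytosolic malate dehydrogenase, was the 1 that rose in the main fit (0.43, edgeR adjusted p = 0.00689), and its groups did not overlap (1195 to 1331 against 1629 to 1798 CPM). With RLE size factors, DESeq2, no filter or no untreated replicate 6, 4 of the 6 were called higher, and with Ensembl features alone or the length and GC correction 0 were. The first 4 of these fits called 20.52%, 24.95%, 17.91% and 13.06% of coding genes higher, in that order.

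Import machinery for carriers rose in 5 of 10 genes, among them Timm13 (0.70), Timm22 (0.60) and Timm10 (0.47), the first and last of which are chaperones of the space between the membranes and the second the insertion channel. The remaining called genes of this list were Timm8b (0.48) and Tomm70a (0.30). The count was 1 of 10 with Ensembl features alone, 0 after the length and GC correction and 1 without AAV9-LMNA replicate 2, 3 or 5. It was 3 without untreated replicate 6 or 8 or AAV9-LMNA replicate 4. Of coding genes 18.4% were called higher in the main fit, 4.49% with Ensembl features alone and 2.93% after the correction. Because these shares fell as well, the lower counts of this list and the next ones are no result about their genes. Of 7 porins and partners of ATP export 4 rose: muscle creatine kinase Ckm (0.61), its mitochondrial form Ckmt2 (0.69), and the outer membrane porins Vdac3 (0.32) and Vdac2 (0.28). Of these 7, 1 was called higher with Ensembl features alone and 0 after the length and GC correction. Vdac3 was at 0.15 and Vdac2 at -0.05 after that correction. Mpc2, a subunit of the pyruvate carrier, rose from 46.5, 59.9 and 56.1 CPM to 76.3, 82.5, 80.5, 81.6 and 87.1 CPM (log2 0.59, edgeR adjusted p = 0.00437), whereas its partner Mpc1, listed at 1.49 to 2.99 CPM, was at -0.55 and not called (edgeR adjusted p = 0.0889). No sideroflexin gene was called in the main fit. Of 8 calcium and cation exchange genes 3 rose: Smdt1 (0.73), a subunit of the calcium uniporter, Letm1 (0.48) and Micu2 (0.45). Of these 8, 1 was called higher with Ensembl features alone and 2 after the length and GC correction. The ABC transporters Abcb8 (0.57) and Abcb10 (0.55) rose, and Abcb8 was called in neither of these fits.

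Carrier relatives under other symbols included the uncoupling proteins, of which Ucp2 and Ucp3 were not called in the main fit and Ucp1 was not tested. Ucp3, the form of muscle, held 8.94, 35.2 and 89.4 CPM in untreated and 150, 143, 119, 134 and 140 CPM in AAV9-LMNA libraries, and it is named after its values were seen. The groups did not overlap, the untreated libraries spread more widely than the AAV9-LMNA ones, and its log2 change of 1.63 (SE 0.62) was not called (edgeR adjusted p = 0.0907). Against untreated replicate 7 alone it was 1.97 and called (edgeR adjusted p = 2.92e-06). Mtch2, an atypical member of the outer membrane, rose by 0.31, and Mtch1 (0.43) and Ucp2 (-0.04) were not called. With Ensembl features alone 6 of the 51 linked genes were called higher (4.49% of coding genes) and 1 lower (8.73%). After the length and GC correction 5 were higher (2.93%) and 1 lower (4.43%). Cpt2, Mpc2, Smdt1 and Abcb10 were called higher in the main fit and in both of these. The gene called lower in both was the sideroflexin Sfxn3, which was at -0.76 against untreated replicate 7 alone.

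**Figure D5:**
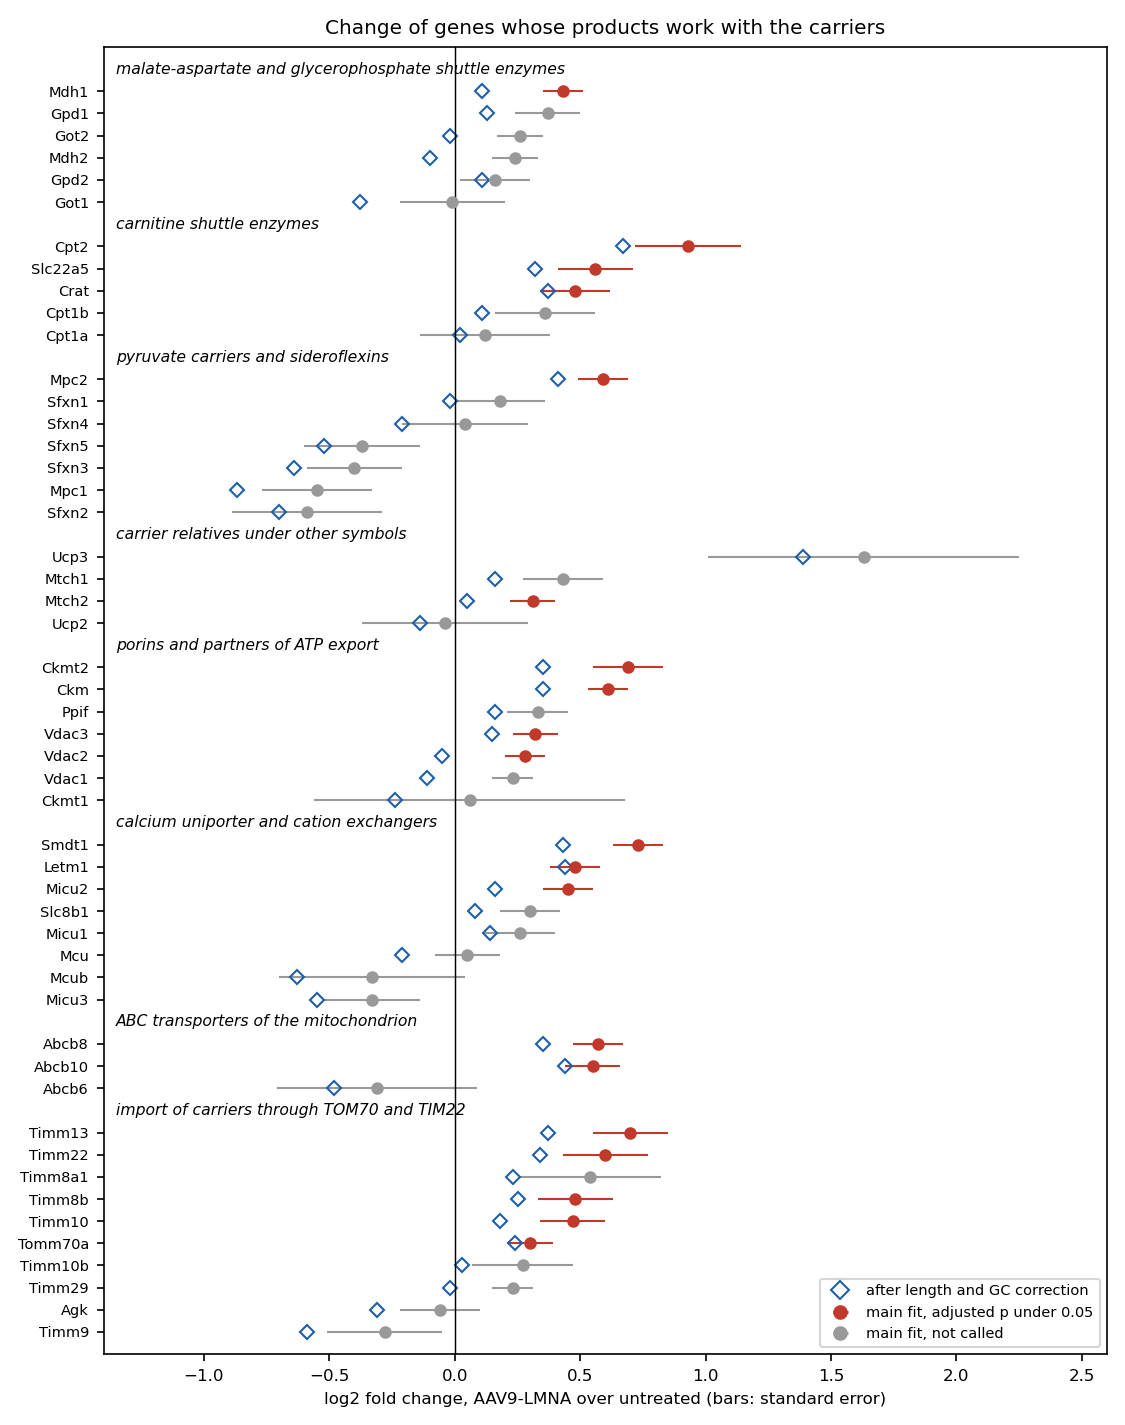
Log2 fold change (AAV9-LMNA over untreated, 3 against 5 libraries) of 50 of the 51 tested genes whose products work with the carriers, by list. Circles are the main fit with the standard error as bars, red where called; open diamonds are the values after the length and GC correction. The 20 called genes drawn lie to the right of 0 in the main fit.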

How the data were processed

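Mouse heart RNA was sequenced as 8 Illumina TruSeq libraries (3 untreated, 5 AAV9-LMNA), per the labels' protocols. The authors deposited raw counts of reads per gene, 1 table per library, over Ensembl and NONCODE genes. HTSeq, TopHat2, limma and edgeR stand without roles in the submitters' processing notes, with the builds mm10 and GRCm38. Per the file names the counting ignored strand, and reads that align to several places are a summary line outside the counts. Symbols, exon lengths and coordinates came from GENCODE M21 (GRCm38), which matched 53360 Ensembl identifiers.

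From these counts edgeR 4.0.16 (R 4.3.3) was fitted over all features that passed filterByExpr, with TMM scaling and robust quasi-likelihood tests of the group; the standard error is the fold change divided by the root of F. Alternatives used DESeq2 1.42.0, limma-voom (limma 3.58.1), RLE size factors, no filter, 1 CPM in 3 libraries, Ensembl features alone, a loess correction for transcript length and GC content (span 0.5), no untreated replicates 6 and 8, and each library left out. Ratios were tested with exact permutation tests (scipy 1.17.1). The scripts were tested on simulated counts, whose spread was set and not taken from these libraries. There 16.4% of 1.5-fold and 79.1% of 2-fold changes were recovered, and 7 of 137 calls fell on unchanged features. A carrier that was not called is thus not shown to be unchanged.

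Per-library values are given for called carriers and every uncalled one with a mean of at least 20 CPM, and the called linked genes with the smallest p are named, up to 3 per list. Other linked genes named (Timm8b, Tomm70a, Vdac2, Mpc1, Cpt1a, Cpt1b, Sfxn3, Mtch1, Ucp2 and Ucp3) and the library values of Slc25a18 and Slc25a47 were chosen after their values were seen. Members and lists were chosen with earlier results of these data known. Whether the libraries come from separate animals is not in the labels. The p-values therefore rest on the variation among these libraries, which may be technical. Overlaps with NONCODE genes were not used here. Single-gene values of 1 carrier and 1 linked gene are not reported here, and the counts include them.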

Additional observations from a re-analysis of the deposited data

Results flagged for a closer look

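Of the 24 genes whose libraries were examined for 1 that lies far from the rest of its group of 5, 2 had such a library, where chance gives about 1 in 20. Slc25a20 was at 262 CPM in AAV9-LMNA replicate 3, against 244 to 247 CPM in the other 4 AAV9-LMNA libraries, a gap that is large only because those lay so close together. Slc25a51 was at 108 CPM in AAV9-LMNA replicate 1, against 117 to 120 CPM in the other 4.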

How the results depend on the processing

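The main fit called 11 carriers, 11 higher and 0 lower; at an unadjusted p under 0.05 3 were lower. With Ensembl features alone 6 carriers were called, 3 higher and 3 lower, and after the length and GC correction 7, 5 higher and 2 lower; the median log2 fold change over the carriers was 0.0 and -0.004 there, against 0.18. DESeq2 and the fit with no filter called 1 lower (Slc25a42 in each), and a minimum of 1 CPM in 3 libraries called 2 lower. Of coding genes these fits called 6.31%, 5.17% and 7.54% lower, in that order. They called 12, 13 and 9 carriers higher, beside 24.95%, 17.91% and 16.21% of coding genes. Of the linked genes 7 were called with Ensembl features alone (6 higher, 1 lower), 6 after the length and GC correction (5 and 1), and without untreated replicates 6 and 8 1 was lower. RLE size factors and limma-voom kept the counts of carriers within 1.5 times the main count. With each library left out, 6 to 13 carriers were called, 6 to 12 higher and 0 to 1 lower, with a median of 0.177 to 0.302; 12 to 24 linked genes were called, 12 to 22 higher and 0 to 2 lower. Carrier calls fell to 7 without AAV9-LMNA replicate 2 or 4 and to 6 without replicate 3. Linked calls fell to 12 without AAV9-LMNA replicate 2, 3 or 5 and to 13 without replicate 4. Without untreated replicate 6, 10 carriers were called higher and 0 lower, beside 13.06% and 5.54% of coding genes. Shares of coding genes in the other fits that left out 1 library are not given here. The falls are therefore not a result about the carriers. The median was 0.302 without untreated replicate 6. The cause was not tested, except that both fits on Ensembl features move the median feature down. No paired analysis was possible because the groups share no replicate number. Whether depth limited the calls of carriers at a few CPM was not tested.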
